A study of Drosophila melanogaster with 3 samples.

Results

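Broad MCM intervals are the stretches of 600 bp or more in a list that joins overlapping peaks of the replicative helicase from 2 replicates. They were the 371 intervals of at least 600 bp on arms 2L, 2R, 3L, 3R and X in the series-wide peak list, chosen by their called width alone, out of 5726 intervals in all and 5612 on these 5 arms. The 5241 narrower intervals on the same arms serve as the reference. The intervals come from chromatin immunoprecipitation and sequencing (ChIP-seq) of MCM2-7 in S2-DRSC, a male Drosophila melanogaster cell line of embryonic origin. The study holds 2 immunoprecipitations of MCM (replicates 1 and 2) and 1 sample of input DNA, without a peak list among the data used. Both immunoprecipitations used asynchronous cultures and the same mouse monoclonal antibody, raised against the yeast complex and directed at the Walker B motif. Their labels name separate extractions but not separate cultures, so differences between them may be technical, and the antibody does not tell the 6 MCM subunits apart.

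MCM2-7 is a ring of related ATPases that is loaded onto DNA at origins before S phase, when the origin recognition complex, Cdc6 and Cdt1 are present. The loaded rings are inactive until Cdc45 and GINS join them to form the moving helicase. Cells load more rings than they use, and rings can slide along DNA away from the place of loading. In an asynchronous culture, a called interval therefore averages over cells before, during and after replication of that place.

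The width of an interval chose the members, and the score, the replicate extents and the zones come from the same peak calls. All values below are therefore descriptions with no test. The exact (Clopper-Pearson) 95% intervals given with shares cover counting error only, and neighbouring intervals are not independent. Read counts were not used, so the depth behind each peak is unknown. The score is the authors' own value per peak, with no named unit, and setting it side by side for the replicates assumes a common scale. How uniquely reads can be placed and how many copies of each place the cells carry were not tested, nor was the control behind each list, which the labels do not name. No genome of the files' build (FlyBase release 5.1) was used, so no sequence or gene is given for any interval.

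Broad intervals were few but held much of the called length. They made up 6.61% of the intervals on the major arms and 24.1% of the called bases (381437 of 1581554 bp). Their median width was 760 bp (interquartile range 666 to 1036.5 bp), against 196 bp (137 to 298 bp) for narrower intervals. Most were only a little above the threshold, with 212 of 600 to under 800 bp, 61 of 800 to under 1000 bp, 81 of 1000 to under 2000 bp and 17 of 2000 bp or more. The 3 widest alone held 33568 bp, which is 8.80% of the length in broad intervals. For comparison, libraries were cut to fragments of 150 to 200 bp, per the labels' protocols.

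The threshold falls within a continuous range of widths. Just inside it were MCM_1014 on 2L and MCM_2667 on 3L, both 601 bp, and MCM_1540 on 2R, 602 bp. Just outside were MCM_1514 on 2R, 599 bp, and MCM_735 on 2L and MCM_2856 on 3L, both 597 bp. These 6 were built in different ways. MCM_1014 was 601 bp in replicate 2 and 43 bp in replicate 1, whereas MCM_2856 was 597 bp in replicate 1 and 2 bp in replicate 2.

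Each of the 371 intervals ran exactly from the first to the last base of the overlapping replicate peaks that form it. In 225 (60.6%, 55.5 to 65.7) this was 1 peak from each replicate, against 98.3% of narrower intervals. The other 146 (39.4%, 34.4 to 44.5) joined 3 or more peaks, against 1.70% of narrower intervals. Joining more peaks makes an interval wider, so part of this difference is fixed by the rule. The share with more than 2 peaks went from 12.5% at 400 to under 600 bp to 29.7% at 600 to under 800 bp, 59.3% at 1000 to under 2000 bp and 76.5% at 2000 bp or more.

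Which replicate was in pieces differed among the members. In 109 intervals only replicate 2 was split, most often as 1 replicate 1 peak over 2 replicate 2 peaks (103 intervals). In 30 intervals only replicate 1 was split, and in 7 both were. The 2 kinds also differed in size and score. Intervals with only replicate 2 split had a median width of 776 bp and a median score of 3.74, and those with only replicate 1 split had 1461 bp and 2.81.

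The gaps inside split intervals had a lower limit. Over 172 gaps between neighbouring peaks of a replicate within a broad interval, the median was 265 bp (interquartile range 231.75 to 356.5 bp), the shortest was 201 bp and the longest 1063 bp. In both whole replicate lists the smallest distance between peaks was 200 bp, and none was smaller. Stretches of signal nearer than this were never listed as separate peaks, and whether a broad peak holds several of them cannot be told from the lists.

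The pieces themselves were often short. The 116 members with a split replicate 2 held 239 replicate 2 peaks with a median width of 187 bp, of which 71 were under 100 bp. The 37 members with a split replicate 1 held 86 replicate 1 peaks with a median width of 339 bp, of which 11 were under 100 bp. Within a member, the highest-scoring piece was a median of 1.30 times the lowest in replicate 2 and 1.49 times in replicate 1.

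**Figure D1:**
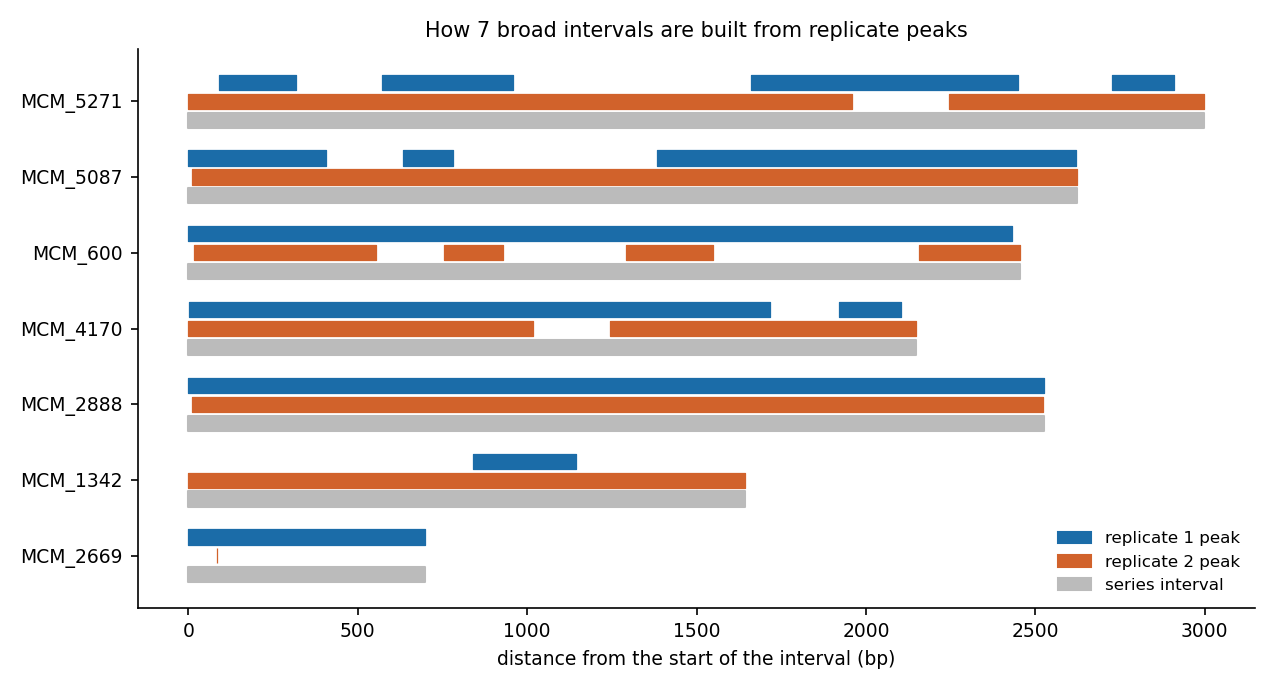
Replicate 1 peaks (blue), replicate 2 peaks (orange) and the resulting series interval (grey) for 7 broad intervals, drawn to scale against the distance from the start of the interval in bp. MCM_5271 joins 6 peaks, MCM_5087 is whole in replicate 2 and MCM_600 whole in replicate 1, MCM_2888 has nearly equal peaks in both, and the replicate 2 peak of MCM_2669 is 1 bp wide.

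The members built from the most peaks show these forms. MCM_5275 (X 12622955 to 12635343) is the widest of all with 12389 bp. It was 1 replicate 2 peak over its whole length, with a score of 3.21, and 6 replicate 1 peaks of 70 to 2845 bp that together covered 5754 bp and scored 1.32 to 3.44. MCM_5271 (X 12613380 to 12616377, 2998 bp) was 4 peaks in replicate 1 and 2 in replicate 2. MCM_5087 (X 8786391 to 8789012, 2622 bp) was 3 replicate 1 peaks under 1 replicate 2 peak. The reverse form was MCM_600 (2L 12010192 to 12012645, 2454 bp), with 1 replicate 1 peak of 2432 bp over 4 replicate 2 peaks of 174 to 538 bp. MCM_4170 (3R 19159663 to 19161809, 2147 bp) was split in both, into 2 peaks each.

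The deposited score of an interval followed from its peaks by 1 rule. Each replicate 1 peak was averaged with all replicate 2 peaks it meets, and these means were then averaged. This gave the deposited score to within 0.001 in 371 of 371 broad and 5241 of 5241 narrower intervals. The mean of both replicate means gave it in 33 of the 146 broad intervals with more than 2 peaks, and the mean over all peaks in 109. A replicate 2 that is split thus weighs more than replicate 1. The effect was small in most members, with a median difference of 0.0513 from the mean of the replicate means. The largest difference was 0.722, in MCM_3684, where a replicate 2 peak of 110 bp scored 15.7.

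Over all members, most were broad in replicate 1 and fewer in replicate 2, though the order differed among the zones described below. A single peak of 600 bp or more was present in 349 of the 371 (94.1%, 91.2 to 96.2). In 122 (32.9%, 28.1 to 37.9) both replicates had such a peak, in 176 (47.4%, 42.3 to 52.7) only replicate 1, and in 51 (13.7%, 10.4 to 17.7) only replicate 2. The remaining 22 (5.93%) reached 600 bp only by joining shorter peaks, and the widest of these was 762 bp. The length called in both replicates was itself 600 bp or more in 137 members (36.9%, 32.0 to 42.1).

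Seen from the replicate lists, 305 of 9351 replicate 1 peaks on the major arms (3.26%) and 196 of 7848 replicate 2 peaks (2.50%) were 600 bp or wider. Of the wide replicate 1 peaks, 127 (41.6%) met a replicate 2 peak that was also this wide. Of the wide replicate 2 peaks, 126 (64.3%) met such a replicate 1 peak.

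The extent called in both replicates varied widely from member to member. Over all members, the median share of a broad interval called in both was 57.9% (interquartile range 39.9 to 80.9%). In narrower intervals it was 56.6% (33.8 to 75%). The median for broad intervals hides a range by width, from 54.2% at 600 to under 800 bp to 69.7% at 2000 bp or more. Replicate 1 covered a median of 98.0% of a broad interval and replicate 2 a median of 76.6%. The corresponding values for narrower intervals were 100% and 66.9%. Replicate 2 lay wholly inside replicate 1 in 164 members (44.2%, 39.1 to 49.4), against 57.3% of narrower intervals. Replicate 1 lay wholly inside replicate 2 in 56 members (15.1%, 11.6 to 19.1), against 7.92% of narrower intervals. The called lengths in both replicates followed each other less closely among broad intervals (Spearman's rho 0.379, n = 371) than among narrower ones (0.589, n = 5241). Both are descriptions across intervals of the same 2 libraries, and the rule fixes the range of widths in each.

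At the upper end, 48 members (12.9%) had more than 90% of their length called in both. MCM_2888 (3L 16037957 to 16040482) had peaks of 2526 and 2511 bp in replicates 1 and 2, and 99.4% of it was called in both. MCM_2964 on 3L (632 and 628 bp), MCM_335 on 2L (664 and 662 bp), MCM_161 on 2L (1124 and 1110 bp) and MCM_599 on 2L (896 and 906 bp) followed, with 97.6 to 99.4%. At the lower end, 11 members (2.96%) had under 10% called in both, so their breadth rests on 1 library. MCM_2669 on 3L was 698 bp in replicate 1 and 1 bp in replicate 2, and MCM_3258 on 3R was 606 and 12 bp. MCM_4011 on 3R was 6 bp in replicate 1 and 719 bp in replicate 2. MCM_5264 on X was 23 and 1178 bp, and MCM_2155 on 3L was 25 and 1121 bp. Either replicate could thus be the wide one.

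Broad intervals were present on all 5 arms, at 2.52 to 3.44 per Mb. Arm X held 77 (3.44 per Mb), 3R held 95 (3.41), 3L held 81 (3.30), 2R held 60 (2.84) and 2L held 58 (2.52). As a share of all intervals of the arm they were 7.35% on X (5.84 to 9.10), 6.89% on 3R (5.61 to 8.36), 7.50% on 3L (6.0 to 9.24), 5.50% on 2R (4.23 to 7.03) and 5.71% on 2L (4.36 to 7.32). The 95% intervals of these shares overlap for every pair of arms, which does not show that the arms are alike. Called length was less even, with 95422 bp on 3L, 93923 bp on X and 84891 bp on 3R, against 56433 bp on 2L and 50768 bp on 2R. Much of the length on X and 3L lay in 1 zone each, described below, with 41923 bp on X and 32666 bp on 3L. Long stretches held none. The longest on each arm was 4257 kb on 2L (6787976 to 11044636), 2646 kb on 3L, 2467 kb on 3R, 1918 kb on X and 1834 kb on 2R.

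Near the centromere, both broad and narrower intervals were sparser than elsewhere. In the 2 Mb of each arm nearest to it there were 2.20 broad intervals per Mb, against 3.20 in the rest of the arms, and 24.2 narrower intervals per Mb, against 45.9. In these 2 Mb lay 22 of the 371 (5.93%, 3.75 to 8.84) and 242 of the 5241 narrower intervals (4.62%, 4.07 to 5.22). The 2 Mb were not alike: 4 of the 22 lay in the nearest 1 Mb, where 4.17% of intervals were broad, and 18 in the next, where 10.7% were. Within 1 Mb alone the order turned, with 1.08% of broad and 1.76% of narrower intervals. These 22 had a median width of 725.5 bp and a median score of 3.56, and the widest was 1124 bp. None of the 17 intervals of 2 kb or more was among them.

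Broad intervals lay near each other. The nearest other broad interval was a median of 14.1 kb away, and the distances ran from 84 bp to 1561 kb. Another broad interval lay within 50 kb of 230 members (62.0%, 56.8 to 67.0). A broad interval lay within the same distance of 41.6% of intervals of 400 to under 600 bp (37.7 to 45.6) and of 28.7% of those under 400 bp (27.4 to 30.03). Within 10 kb the values were 44.5%, 21.6% and 11.5%. The share was therefore higher at greater width on both sides of the threshold. Broad intervals also had more narrower intervals around them, with a mean of 2.63 within 10 kb, against 1.82 around a narrower interval. Around intervals of 400 to under 600 bp the mean was 2.36, so this value too was higher at greater width on both sides of the threshold.

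Runs of broad intervals with gaps of at most 50 kb are called zones here. There were 60 zones, of 2 intervals in 27 cases, 3 in 12, 4 in 8 and 5 or more in 13, and 141 members (38.01%) stood alone. The 13 large zones, those of 5 or more, lay on all arms, with 5 on 3R, 4 on 3L, 2 on X and 1 each on 2L and 2R. They held 108 members (29.1%) but 43.0% of the broad length, over spans of 11.0 to 116.4 kb. None of their members lay in the 2 Mb nearest a centromere. Members were wider in larger zones, with a median of 702 bp when alone, 768 bp in zones of 2 to 4 and 982.5 bp in large zones. In the same order, the median share of a member called in both replicates was 48.4%, 62.2% and 64.0%. Members that stood alone were thus below the 56.6% of narrower intervals. The mean number of narrower intervals within 10 kb was 2.04 for members that stood alone, 2.91 in zones of 2 to 4 and 3.10 in large zones.

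The zone with the most members was X 12559933 to 12650036, with 16 broad and 7 narrower intervals over 90.1 kb. Its broad intervals were 831 to 12389 bp wide and covered 46.5% of the span. They formed 2 blocks of 6 and 10 with 33.3 kb between them. Replicate 1 called 23.1 kb and replicate 2 called 41.2 kb within the 16 intervals, and replicate 2 was the longer in 14 of them. Of the 5 widest members, 3 were in this zone, namely MCM_5275, MCM_5263 (5653 bp) and MCM_5262 (4105 bp).

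The zone 3L 605858 to 658426 had 8 broad intervals and no narrower one over 52.6 kb, and these covered 62.1% of the span. It held MCM_2159 (11100 bp), MCM_2161 (10079 bp), MCM_2158 (3845 bp) and MCM_2154 (2698 bp). Here both replicates were broad at the widest members, with 9708 and 11100 bp called at MCM_2159 and 8317 and 9987 bp at MCM_2161. Gaps between neighbouring intervals were as short as 205 bp. Together, the zones on X and 3L contained 9 of the 10 widest members, 9 of the 17 of 2 kb or more and 19.6% of the broad length. The remaining member of the 10 widest was MCM_30 (2L 479115 to 482590, 3476 bp).

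**Figure D2:**
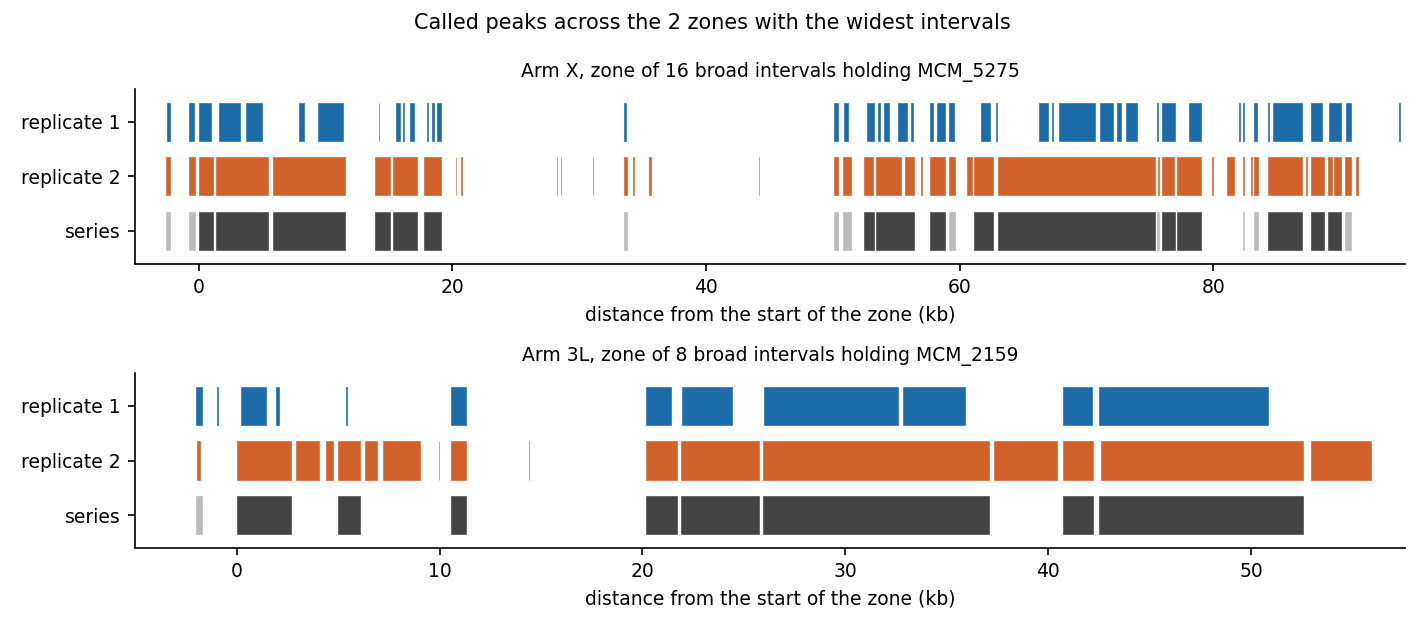
Called peaks of replicate 1 (blue), replicate 2 (orange) and the series list (dark grey for 600 bp or more, light grey for narrower) in the zones holding MCM_5275 on X and MCM_2159 on 3L, against the distance from the start of the zone in kb. On X the long replicate 2 peaks stand over several replicate 1 peaks. On 3L the 2 widest intervals, MCM_2159 and MCM_2161, were called over most of their length in both replicates, while a replicate 2 peak of 3118 bp between them meets no replicate 1 peak.

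The next zones by number of members were 2L 479115 to 523886 and 3R 25574278 to 25633004 with 10 each, and 3L 16004533 to 16106947 with 9. On 2L, 12.2 kb of broad intervals covered 27.3% of the span and replicate 2 was longer in 9 of 10. On 3R, 11.6 kb covered 19.7% and replicate 2 was longer in 7 of 10. On 3L, 11.7 kb covered 11.4% and replicate 2 was longer in 6 of 9. The most compact large zone was 2R 6975403 to 6986451, where 7 broad intervals and no narrower one covered 87.0% of 11.0 kb, with gaps down to 84 bp.

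The replicate with the longer call depended on the zone. Among the 141 members that stood alone, replicate 2 was longer in 13 (9.22%, 5.0 to 15.3). In zones of 2 to 4 it was longer in 26 of 122 (21.3%, 14.4 to 29.6), and in large zones in 75 of 108 (69.4%, 59.8 to 77.9). Summed over members, replicate 1 called 103.3 kb and replicate 2 60.9 kb in single members, against 115.6 and 152.8 kb in large zones. A peak of 600 bp or more was present in replicate 1 in 125 and in replicate 2 in 29 of the 141 single members. In large zones the counts were 71 and 86 of 108. Only replicate 1 had such a peak in 102 single members (72.3%), and both replicates had one in 23 (16.3%), against 52 (48.1%) in large zones. In 10 of the 13 large zones the summed replicate 2 length was the greater, and the ratio of replicate 2 over replicate 1 ran from 0.687 to 1.78. Without the 2 zones that hold the widest members, replicate 2 was still longer in 54 of 84 (64.3%, 53.1 to 74.4).

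This difference was also present at like widths. Among members of 600 to under 800 bp, replicate 2 was longer in 9 of 104 single members (8.65%), 15 of 69 in zones of 2 to 4 (21.7%) and 25 of 39 in large zones (64.1%). Narrower intervals showed the same order of values. Replicate 2 was longer in 61 of the 99 narrower intervals inside large zones (61.6%, 51.3 to 71.2) and in 949 of 5142 elsewhere (18.5%, 17.4 to 19.5). Zones were drawn from widths in which both replicates count, so this is not independent of the rule, and the cause was not tested. The split followed the same order: of the 30 members in which only replicate 1 was split, 26 (86.7%) were in large zones, and of the 109 in which only replicate 2 was split, 15 (13.8%) were.

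**Figure D3:**
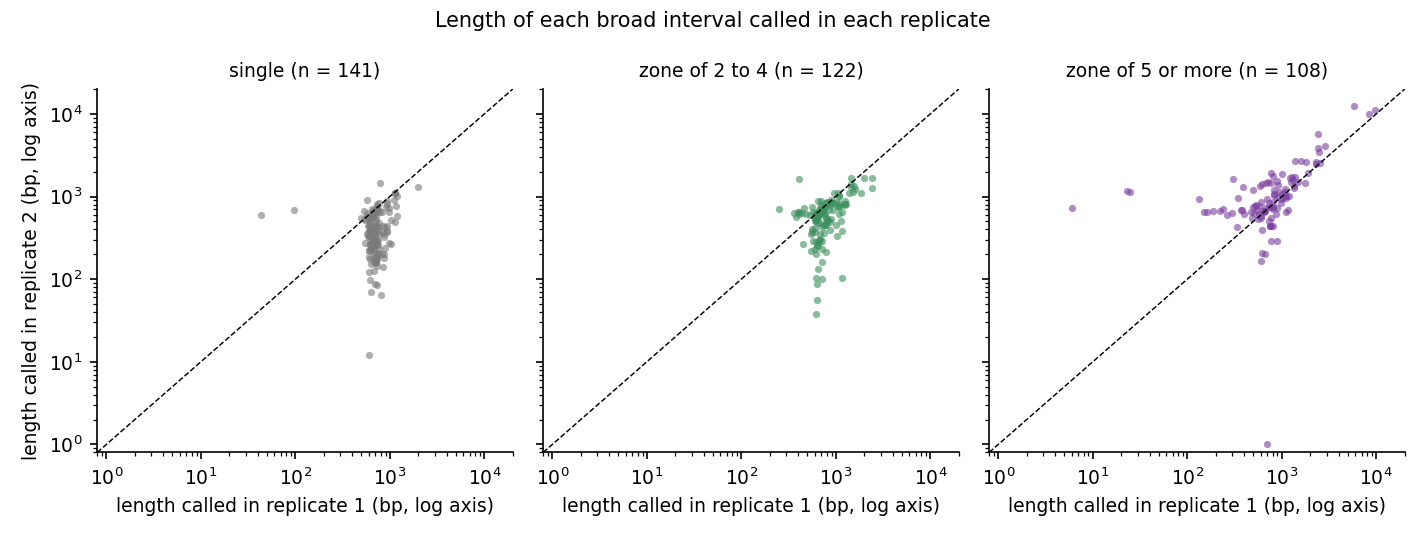
Length called in replicate 1 against length called in replicate 2 for each of the 371 broad intervals, in bp on log axes, in panels for members that stand alone, in zones of 2 to 4 and in zones of 5 or more. The dashed line marks equal lengths. Points lie above it, longer in replicate 2, for 13 of 141, 26 of 122 and 75 of 108 members.

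**Figure D4:**
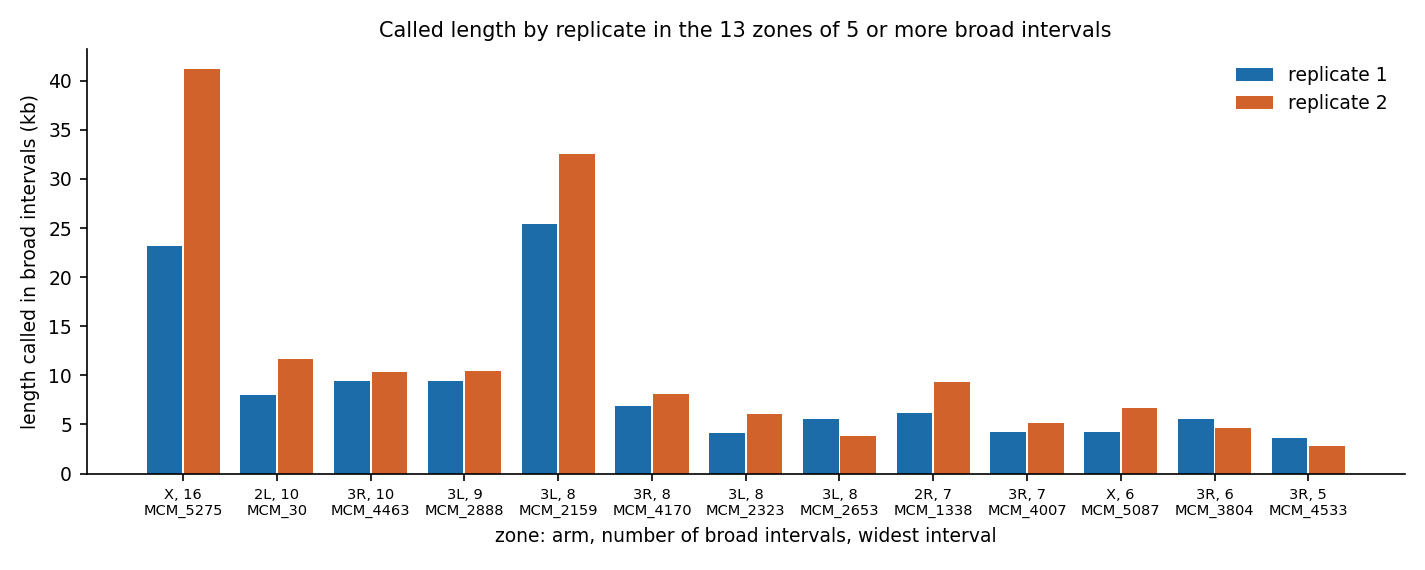
Summed length in kb called in broad intervals by replicate 1 (blue) and replicate 2 (orange) in the 13 zones of 5 or more broad intervals. Labels give the arm, the number of broad intervals and the widest of them. Replicate 2 is the longer in 10 of the 13.

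Scores of broad intervals were lower than those of narrower ones by less than the spread within either class. The median was 3.48 (interquartile range 2.75 to 4.32) against 3.82 (3.11 to 4.77). From replicate 1 peaks alone the medians were 3.58 and 3.79, and from replicate 2 peaks alone 3.47 and 3.81. When wide peaks were instead taken from each replicate list by itself, the direction depended on the list, with 3.64 against 3.54 in replicate 1 and 3.21 against 3.65 in replicate 2. By width, the median series score was 3.76 at 400 to under 600 bp, 3.63 at 600 to under 800 bp, 3.35 at 800 to under 1000 bp, 3.32 at 1000 to under 2000 bp and 2.79 at 2000 bp or more. Over the members, Spearman's rho of width and score was -0.215 (n = 371). Broad intervals made up 11.9% of the lowest-scoring 10% of intervals and 2.32% of the highest-scoring 10%.

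**Figure D5:**
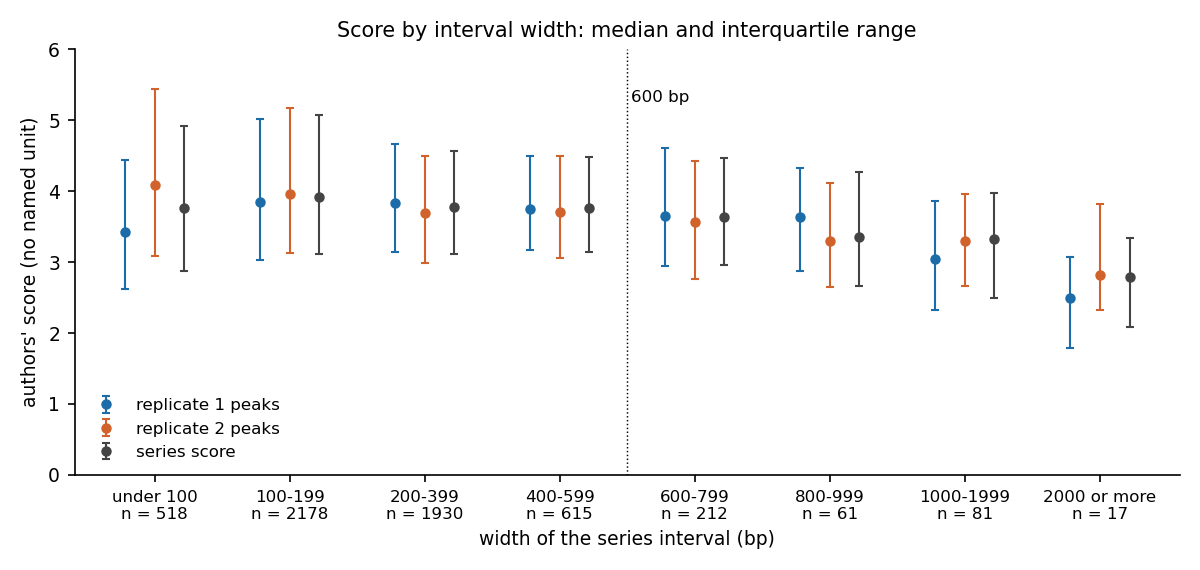
Authors' score by width of the series interval, as median (points) and interquartile range (bars), from replicate 1 peaks (blue), replicate 2 peaks (orange) and the series list (grey). The dotted line marks 600 bp. The median series score goes from 3.76 at 400 to under 600 bp to 2.79 at 2000 bp or more.

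Scores also differed with the zone. Members that stood alone had a median of 3.86, close to narrower intervals, those in zones of 2 to 4 had 3.49 and those in large zones 2.92. Narrower intervals inside large zones had a median of 2.78, against 3.84 elsewhere. At 600 to under 800 bp the values were 3.92, 3.45 and 3.09. Inside large zones the scores of broad intervals were thus not below those of narrower ones, and both were low. Without large zones the median of the remaining 263 members was 3.70, against 3.84 for narrower intervals elsewhere. Large zones ranged from a median of 1.81 for the 3L zone with MCM_2159 and 1.94 for the compact 2R zone to 3.86 for the 3R zone with MCM_3804.

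The replicates gave similar scores at broad intervals. Scores were within 1.5 times each other in 346 members (93.3%, 90.2 to 95.6) and in 92.8% of narrower intervals. Divided by replicate 1, the replicate 2 score had a median log2 ratio of -0.01 over all members, with -0.12 in single members, -0.05 in zones of 2 to 4 and 0.19 in large zones. Replicate 2 scored higher in 47 of 141 (33.3%), 46 of 122 (37.7%) and 81 of 108 (75%) of these. Among narrower intervals it scored higher in 79 of 99 inside large zones (79.8%) and in 53.6% elsewhere. Their median log2 ratios were 0.21 and 0.03. The higher replicate 2 score in large zones was therefore not particular to broad intervals. The replicate with the longer call in large zones thus also had the higher score more often. The control and the depth of each library, which bear on both, were not tested.

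The 5 broad intervals with the highest scores were all under 1000 bp wide. So were most of the 371 members, with 212 of 600 to under 800 bp and 61 of 800 to under 1000 bp. MCM_5514 (X 17425431 to 17426108, 678 bp) scored 8.53 in replicate 1 and 10.3 in replicate 2, where its peak was 179 bp. MCM_1748 on 2R (14229868 to 14230650, 783 bp) scored 9.39 in replicate 1 and 7.68 and 9.38 in 2 replicate 2 peaks. MCM_3684 on 3R (9913807 to 9914781, 975 bp) scored 5.19 in replicate 1, and its 2 replicate 2 peaks scored 3.40 over 539 bp and 15.7 over 110 bp, so its rank rests on 1 short peak. MCM_4690 on X (652947 to 653638, 692 bp) scored 7.65 and 8.31, and MCM_1828 on 2R (15614064 to 15615054, 991 bp) scored 7.63 and 6.79.

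The lowest scores were at some of the widest intervals and at short ones. MCM_2161 (3L 648348 to 658426) was lowest, with 1.10 in replicate 1 and 1.29 in replicate 2. MCM_1342 on 2R (6981209 to 6982850, 1642 bp) scored 1.27 and 1.59, and MCM_2157 on 3L (626015 to 627553, 1539 bp) scored 1.30 and 1.61. Both belong to large zones. MCM_5451 on X (612 bp) scored 1.46 and 1.41. MCM_2073 on 2R (650 bp) scored 1.44 and 1.46, and its peaks of 446 and 270 bp shared 66 bp.

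Wide intervals of high score were present as well. The 2L zone 12002997 to 12012645 has 4 broad intervals over 9.65 kb. In it MCM_600 scored 5.53 in replicate 1 and a mean of 4.98 in replicate 2. MCM_596 (1832 bp) scored 5.29 and 5.39, and MCM_599 (912 bp) 5.90 and 5.40. The remaining and narrowest member, MCM_597 (672 bp), scored lower, with 3.65 and 3.11. Here replicate 1 was the longer, with 5.83 kb against 3.56 kb. This zone was picked out after its values were seen. Great width and a low score did therefore not always go together.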

How the data were processed

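Cross-linked chromatin of S2-DRSC cells was immunoprecipitated for MCM2-7. Libraries were read from 1 end on the Genome Analyzer II of Illumina, per the labels' protocols. PeakSeq peaks in coordinates of FlyBase release 5.1 were deposited, per the file headers. The caller's version and settings, the aligner, the control and the threshold are not given in these sources. The deposited score per peak is the authors' own, with no named unit. The 3 samples were grouped by their labels as 2 MCM immunoprecipitations and 1 input. No depth is known.

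Replicate peaks were assigned to series intervals by at least 1 bp of overlap. Arm lengths are the last peak end over the 3 lists. The members and the rules were chosen with earlier results of these data known. No test was run. Named regions follow a rule: the 10 widest, 5 highest and 5 lowest scores, 5 largest and 5 smallest shares called in both, 5 with the most peaks, 5 largest zones, and 3 on each side of 600 bp. Others were picked after their values were seen. The comparison of replicate lengths by zone was added after seeing the data. The joining code was tested on simulated data. Software was SciPy 1.17.1, pandas 2.3.3 and NumPy 2.4.6 under Python 3.11.15, with figures by matplotlib 3.10.9.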

Additional observations from a re-analysis of the deposited data

Results flagged for a closer look

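Peaks of 600 bp or more also occurred outside the 371 members, in data that the comparisons above do not use and for which no input peaks were used as a background. The series list had 23 intervals of this width off the major arms, out of 114 there (20.2%, exact 95% interval 13.2 to 28.7). They were 607 to 119801 bp wide with a median of 1000 bp, and their median score was 3.10. Of these, 6 were on chromosome 4, 6 on the unplaced sequence U, 5 on 2RHet, 3 on 3RHet, 2 on 3LHet and 1 on 2LHet.

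On the major arms, 19 of the 196 replicate 2 peaks of 600 bp or more met no replicate 1 peak and are in no series interval. In replicate 1 this held for 2 of 305. Being in no series interval is not particular to wide peaks. The replicate lists hold 9351 and 7848 peaks on these arms, against 5612 series intervals. Of these intervals, only 45 hold more than 1 replicate 1 peak and 197 more than 1 replicate 2 peak. The 19 peaks were 632 to 3118 bp wide with a median of 1150 bp, 11 of them lay on 3L, and 17 lay within 50 kb of a broad interval. These 17 came from few places. Most of those on 3L lay in or beside the zones 605858 to 658426 and 16004533 to 16106947, and the 3 on 2R lay beside the compact 2R zone. The shares on 3L and within 50 kb of a broad interval over all replicate 2 peaks are not given, so neither count can be read as a trait of the 19. The median score of the 19 was 1.41, and the highest was 1430.4, at X 21802330 to 21804190. In the 3L zone with MCM_2159, a replicate 2 peak of 3118 bp (643164 to 646281, score 1.37) lay inside the zone, 244 bp from a broad interval. Another of 2972 bp (658787 to 661758, score 1.09) lay past the end of the zone, 360 bp from its last broad interval.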

How the results depend on the processing

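The number of broad intervals follows from the threshold: 986 at 400 bp, 159 at 800 bp and 98 at 1000 bp. It was 137 when 600 bp had to be called in both replicates and 140 in the higher-scoring 50% of the list, and ranged from 196 to 305 when either replicate was left out. The share of called bases was then 16.3 to 20.03%. The share nearest the centromere was 1.08% for 1 Mb (narrower 1.76%, so the order turned), 8.63% for 3 Mb (narrower 8.47%), and 5.57 to 5.61% with a replicate left out. The share with another broad interval within 50 kb was 53.6% for 20 kb and 67.1% for 100 kb. A broad interval lay within 20 kb of 18.5% of narrower intervals and within 100 kb of 42.6%. For those of 400 to under 600 bp the values were 29.4% and 50.7%. The share for broad intervals was 65.3% at 1000 bp and 55.1 to 76.5% with a replicate left out. No value for narrower intervals is given at these settings, so the grouping cannot be compared there. Without zones of 5 or more the share for broad intervals was 46.4%. The remaining broad intervals lay within 50 kb of 26.6% of narrower intervals and of 33.3% of those of 400 to under 600 bp. In the replicate lists 4.49 to 7.86 narrower peaks lay within 10 kb of a wide peak, against 3.13 (replicate 1) and 3.40 (replicate 2) around a narrower one. The median score was 3.58 from replicate 1 peaks, 3.56 weighted by length, 3.19 at 1000 bp and 3.70 without zones of 5 or more, and was below that of narrower intervals in each. With a replicate left out it was 3.21 to 3.64. In the replicate 1 list alone, wide peaks scored 3.64 against 3.54 for narrower ones, so the direction of the score difference was turned there. The cause was not tested. The share called in both was 66.4% at 1000 bp. A single peak of 600 bp came from replicate 2 in 46.6% and from replicate 1 in 80.3% of members. The log2 score ratio was 0.014 from the highest peaks and -0.078 without zones of 5 or more. The share built from more than 2 peaks stayed between 39.4 and 40%. Joining peaks closer than 100 bp could not change it, since none are. It and the share called in both need both replicates. Alternatives without zones of 5 or more, and narrower peaks per replicate, were chosen after seeing the data. No paired analysis was possible because there is 1 group of 2 samples and no test. Unknown depth limits what peak edges, and so widths, can show.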
